A study of Arabidopsis thaliana with 4 samples.

Results

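At 7040 places in the Arabidopsis thaliana genome, a peak was listed in all 3 protein preparations of the study, namely LFY mixed with UFO, its K249R version without UFO, and the K249R version mixed with UFO. These common sites are the members of the LFY + UFO list of 18957 peaks whose centre lay at most 200 bp from a peak centre in each of the lists for LFY K249R (9956 peaks) and LFY K249R + UFO (8577 peaks). They make up 37.1% of the LFY + UFO list. This share is fixed by the rule of selection and was not tested. The series holds 4 samples, of which the input DNA sample, made without tagged protein, has no peak list analysed here. The assay was ampDAP-seq, in which tagged protein is mixed with amplified genomic DNA in the test tube and the DNA that stays with it is sequenced. The DNA came from wild-type Col-0 seedlings. LFY and its K249R version carried a 5xmyc tag and came from an in vitro transcription and translation kit, and UFO was added as a recombinant ASK1-UFO-3xFLAG complex. The list for LFY + UFO holds peaks that recurred in 3 replicates, and each mutant list holds peaks that recurred in 2.

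LEAFY (LFY) is a transcription factor found across land plants that switches shoot meristems to making flowers and turns on the genes that set floral organ identity. It binds DNA as a dimer through a helix-turn-helix domain, at a pseudo-palindromic site. UFO, named UNUSUAL FLORAL ORGANS for its mutant, belongs to the F-box proteins and works with LFY in the plant, above all on the petal and stamen gene APETALA3. K249R exchanges a lysine of the DNA-binding domain for an arginine. The 3 preparations were compared in the study to see where LFY binds with UFO and whether the lysine matters for it. The common sites are the positions listed with UFO and without it, and with the lysine and without it. The series has no sample of LFY with the lysine and without UFO. Binding of unmutated LFY alone at these sites was therefore not measured. In naked DNA there is no chromatin, so the sites describe affinity for DNA and not occupancy in a living flower.

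The lists give a chromosome, a start and an end for each peak, in the TAIR10 build, and no height, score or read count. All intervals are 400 bp wide. A site missing from a list may have been unbound or may have fallen below the calling threshold, and the lists hold no value that tells these apart. Whether the common sites are the taller peaks was not tested. Each preparation has 1 list in which the replicates were already merged, so no error between replicates can be given. Intervals in brackets are 95% binomial intervals over peaks, and they cover counting error alone.

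At AP1 (AT1G69120), a MADS-box gene that gives a young meristem its floral identity, the common site nearest to the gene lay at chr1:25986324-25986723, with its centre 0.175 kb outside the gene. The LFY K249R centre stood at an offset of -3 bp from the LFY + UFO centre and the LFY K249R + UFO centre at -5 bp, where a positive offset points to higher coordinates. The 3 preparations thus placed this peak within 5 bp of each other, and this distance between the outermost centres is called the spread of a site. A further common site, at chr1:25980565-25980964, lay on the other side of AP1 and inside the neighbouring gene AT1G69100, with a spread of 3 bp.

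AGAMOUS (AG, AT4G18960), the MADS-box gene of stamen and carpel identity, held 2 common sites inside the gene. They were at chr4:10385844-10386243 and chr4:10386436-10386835. Offsets were -7 and -2 bp at the lower site and -3 and -7 bp at the upper, so all preparations marked both positions to within 7 bp. The gene is known to be controlled from sequences inside it, in its large second intron, to which LFY binds. Introns were not mapped here, so the place of the 2 sites within the gene's introns and exons was not determined.

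AP3 (AT3G54340), the MADS-box gene for which UFO is best known, had 3 common sites. Of these, 2 were inside the gene, at chr3:20119389-20119788 with a spread of 11 bp and at chr3:20119960-20120359 with a spread of 80 bp. The wide spread came from the LFY K249R + UFO centre, at an offset of -80 bp, while the LFY K249R centre was at -4 bp. The third site, chr3:20121595-20121994, was 0.481 kb outside the gene, nearer to the neighbouring gene emb1967, and its 3 centres agreed to within 7 bp. Between these sites, 0.026 kb outside AP3, was a LFY + UFO peak at chr3:20121140-20121539 that had a partner in neither mutant list. Another such peak, chr3:20123782-20124181, lay 2.668 kb outside AP3 and inside emb1967. The AP3 locus therefore carries both kinds of site side by side.

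PISTILLATA (PI), the partner of AP3, had no common site inside the gene. Its common site, chr5:6826057-6826456, was 2.647 kb from the gene and 0.108 kb from the neighbouring gene BCB. The LFY + UFO peak nearest to PI (AT5G20240), 0.155 kb outside it, was also found with LFY K249R but not with LFY K249R + UFO. In the window, 3 further peaks were in neither mutant list, all of them inside or nearer to the neighbouring genes BCB and DIN10.

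**Figure D1:**
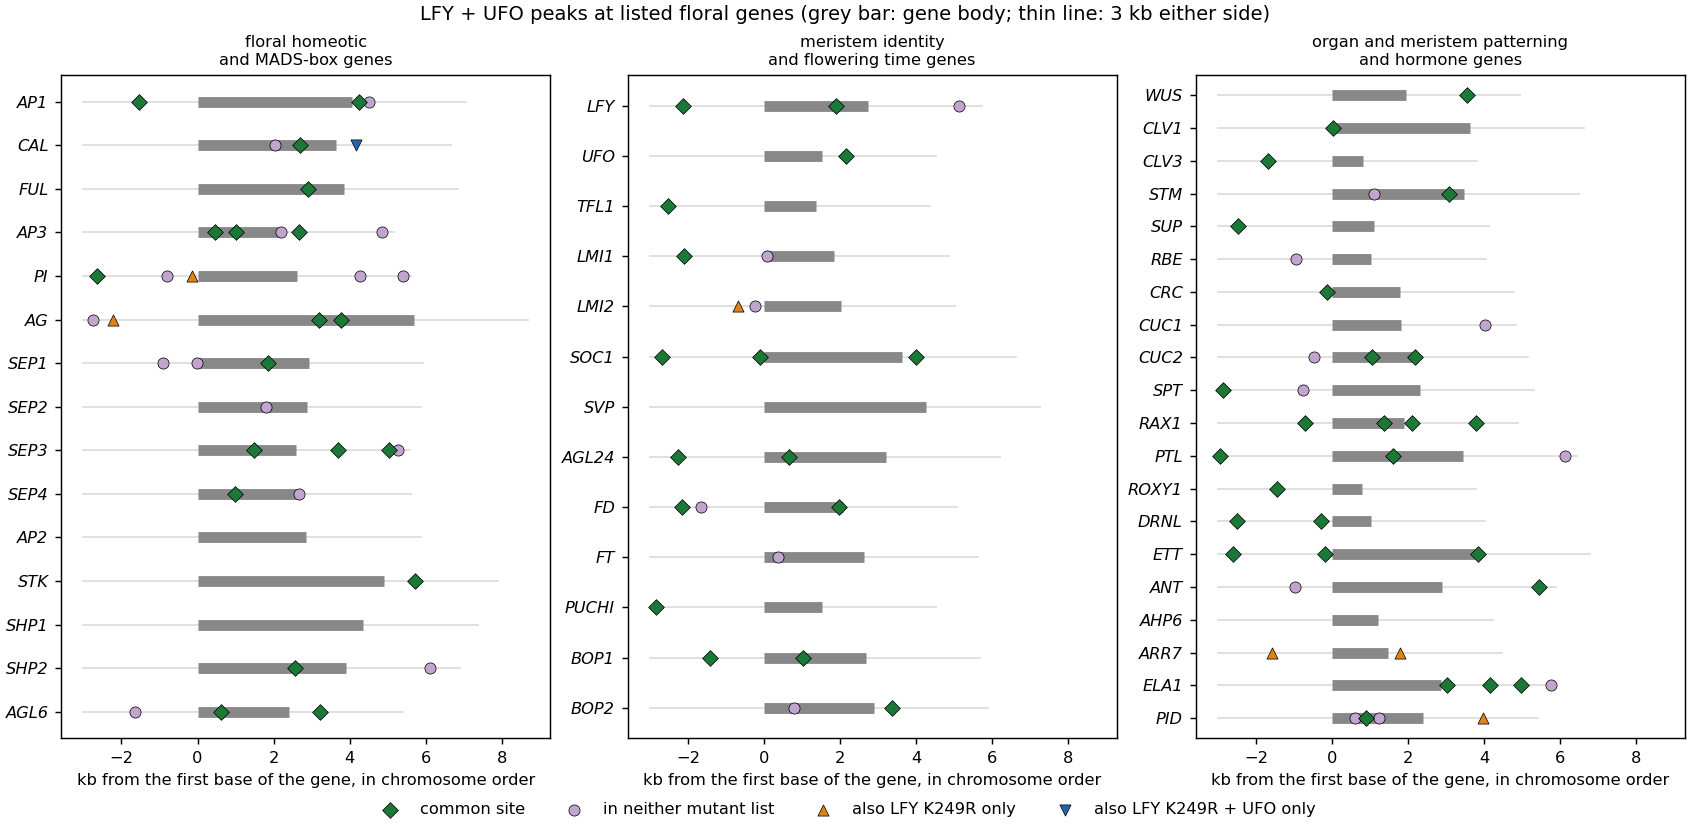
LFY + UFO peaks at 48 of the 49 listed floral genes, with the distance of each peak centre from the first base of the gene in kb, in chromosome order and not in the direction of transcription. Thick grey bars are gene bodies, thin lines the 3 kb on either side, and symbols show which mutant lists held the peak; 38 genes have at least 1 common site (green diamonds), with 4 at RAX1 and 2 inside AG.

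Genes were taken from RefSeq's table for assembly TAIR10.1, and a gene was counted when a common site lay inside it or within 3 kb of either end. The table gives no strand, so upstream and downstream are not told apart. Of the 49 genes on 3 lists of floral regulators, 38 had a common site, which is 77.6%. Among all 27444 protein-coding genes of the nuclear chromosomes the share was 41.4%. The windows of the listed genes were slightly longer, with a median of 8612 bp against 8078 bp. Any LFY + UFO peak was found at 44 of the 49 genes, against 75.9% of all genes. Peaks of the LFY + UFO list without a partner in either mutant list were found at 26 of the 49, or 53.1%, close to the 54.2% of all genes. The lists hold known LFY targets, and these shares are a description without a test.

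The same was seen when peaks were counted in place of genes. The windows of the listed genes held 97 LFY + UFO peaks, of which 59, or 60.8%, were common sites, compared with 37.1% of the whole list. The peaks in these windows and the whole list were not matched for place inside or outside genes, and the part of place was not tested. Common sites inside the gene itself were found at 19 listed genes (38.8%), against 13.5% of all protein-coding genes. The listed genes were longer, with a median of 2612 bp against 2078 bp, and the part of length was not tested. With windows of 1 kb on either side the count was 28 (57.1%), against 24.7%. At least 2 common sites were present at 16 genes, against 10.3% of all genes, and at least 3 were present at 6 genes, against 1.81%.

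A window can take in a site that lies closer to another gene. In 40 of the 61 pairs of a listed gene and a common site, the listed gene contained the site or was the nearest protein-coding gene. These pairs covered 28 of the 49 genes. By the same reading, 20.8% of all protein-coding genes were the nearest gene of a common site within 3 kb.

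Among the 15 floral homeotic and MADS-box genes, 12 had a common site. SEP3 (AT1G24260), whose product joins the other floral MADS proteins into complexes, had 3, of which 1 lay inside the gene (chr1:8594829-8595228, spread 15 bp) and another 1.108 kb from it (chr1:8597031-8597430, spread 13 bp). The third (chr1:8598358-8598757, spread 21 bp) was nearer to AT1G24265. CAL (AT1G26310), the close relative of AP1, held a site inside the gene at chr1:9102480-9102879, where the 3 centres fell within 5 bp. Sites inside the gene were also found in SEP1 (AT5G15800) (chr5:5152995-5153394, spread 4 bp), SEP4 (AT2G03710) (chr2:1130013-1130412, spread 11 bp), FUL (AT5G60910) (chr5:24505131-24505530, spread 19 bp) and SHP2 (AT2G42830) (chr2:17822469-17822868, spread 6 bp). SEP1 and SEP4 act with SEP3, FUL shapes the fruit and SHP2 acts in fruit and ovule. STK (AT4G09960), an ovule identity gene, had a site 0.816 kb away (chr4:6241897-6242296, spread 14 bp). AGL6 (AT2G45650) had one inside the gene (chr2:18804615-18805014, spread 4 bp) and one between it and SOC1 (AT2G45660) (chr2:18807204-18807603, spread 16 bp). SEP2 (AT3G02310), AP2 (AT4G36920) and SHP1 (AT3G58780) had none. SEP2 did have a LFY + UFO peak inside it, found in neither mutant list, whereas AP2 and SHP1 had no LFY + UFO peak in the window.

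Of the 13 meristem identity and flowering time genes, 10 had a common site. LFY itself (AT5G61850) carried one inside its gene, at chr5:24845937-24846336, where the mutant centres stood at offsets of -18 and -16 bp. Another, at chr5:24841930-24842329 (spread 15 bp), fell inside the neighbouring gene GUT1. SOC1, which integrates flowering signals, had 3 sites in its window. These were the 2 named for AGL6, with 1 of them 0.101 kb from SOC1, and one 0.369 kb beyond its other end (chr2:18811294-18811693, spread 15 bp). AGL24 (AT4G24540), a partner of SOC1, held a site inside the gene (chr4:12671356-12671755, spread 5 bp) and one at 2.257 kb inside AT4G24530 (chr4:12668440-12668839, spread 23 bp). FD (AT4G35900), the transcription factor that works with the flowering signal FT (AT1G65480), had a site 0.097 kb inside its edge (chr4:17006165-17006564, spread 15 bp). Its other site, 2.159 kb away (chr4:17002023-17002422, spread 5 bp), was nearer to LARP1c. BOP1 (AT3G57130) and BOP2 (AT2G41370), related co-regulators of flower and leaf patterning, both had sites. In BOP1 one was inside (chr3:21148380-21148779, spread 22 bp) and one at 1.422 kb (chr3:21145936-21146335, spread 19 bp), while that of BOP2 was 0.487 kb away (chr2:17240896-17241295, spread 9 bp).

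At the remaining 4 genes of that list with a site, another gene was nearer. TFL1 (AT5G03840), which opposes LFY in the shoot tip, had its site at 2.523 kb (chr5:1021777-1022176), with both mutant centres at an offset of 4 bp. The site of LMI1 (AT5G03790), a homeodomain gene known as a LFY target, was at 2.103 kb (chr5:1002479-1002878, spread 14 bp). PUCHI (AT5G18560), an AP2/ERF gene of floral meristem identity, had one at 2.834 kb (chr5:6161492-6161891, spread 7 bp). The UFO gene (AT1G30950) had a site 0.648 kb away, inside AT1G30960 (chr1:11037956-11038355, spread 12 bp). LMI2 (AT3G61250), FT and SVP (AT2G22540) had none, although FT held a LFY + UFO peak that was in neither mutant list and LMI2 had 1 such peak and 1 shared with LFY K249R alone.

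In the list of 21 organ patterning, meristem and hormone genes, 16 had a common site. RAX1 (AT5G23000), a MYB gene of axillary meristems and a known LFY target, had the most of any listed gene. Its 4 sites were chr5:7695229-7695628, chr5:7697298-7697697 inside the gene, chr5:7698047-7698446 and chr5:7699722-7700121. RAX1 was the nearest gene to each of them, their spreads were 10, 7, 17 and 6 bp, and no other LFY + UFO peak lay in the window. ELA1 (CYP714A1, AT5G24910), a cytochrome P450 of gibberellin breakdown, had 3 sites in a row beyond its higher end, at 0.172, 1.303 and 2.104 kb (chr5:8570339-8570738, chr5:8571470-8571869 and chr5:8572271-8572670). The first 2 had spreads of 5 and 7 bp and the farthest 72 bp. ETT (AT2G33860), an auxin response factor, also had 3, at 0.068 kb (chr2:14328846-14329245, spread 12 bp), 0.188 kb (chr2:14324818-14325217, spread 14 bp) and 2.612 kb (chr2:14322394-14322793, spread 13 bp). The last 2 were inside or nearer to other genes, AT2G33855 and AT2G33850.

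Several regulators of the meristem and of organ boundaries were also marked. CUC2 (AT5G53950), a NAC factor of organ boundaries, held one site inside (chr5:21902552-21902951, spread 13 bp) and one 0.037 kb outside (chr5:21903691-21904090, spread 33 bp). STM (AT1G62360), the homeobox gene that maintains the meristem, held one inside (chr1:23061446-23061845, spread 7 bp), and the receptor gene CLV1 (AT1G75820) held one at its edge (chr1:28463180-28463579, spread 22 bp). PTL (AT5G03680), a petal regulator, had one inside (chr5:959013-959412, spread 6 bp) and one at 2.948 kb (chr5:954463-954862, spread 21 bp). PID (AT2G34650), a kinase of auxin transport, had one inside (chr2:14590424-14590823) with mutant offsets of 38 and 35 bp, and a LFY + UFO peak in neither mutant list on each side of it. Mutant centres lay at offsets of 309 and 306 bp from the lower of these peaks and of -308 and -311 bp from the upper. Their 400 bp intervals thus overlapped both peaks, which fell outside by the 200 bp limit on centres. DRNL (AT1G24590), an AP2-type gene of organ founder cells, had sites at 0.278 kb (chr1:8713887-8714286, spread 15 bp) and 2.491 kb (chr1:8711674-8712073, spread 8 bp). The latter was nearer to AT1G24575. SUP (AT3G23130), a zinc-finger gene of the stamen and carpel boundary, had one at 2.471 kb (chr3:8239585-8239984, spread 26 bp), and SPT (AT4G36930), a bHLH gene of the carpel, had one at 2.852 kb (chr4:17411031-17411430, spread 16 bp).

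For 5 more of these genes the site was inside or nearer to a neighbour. They were the carpel gene CRC (AT1G69180) at 0.141 kb (chr1:26007009-26007408, spread 8 bp), the glutaredoxin gene ROXY1 (AT3G02000) at 1.442 kb (chr3:330633-331032, spread 11 bp) and the stem-cell gene WUS (AT2G17950) at 1.618 kb (chr2:7812229-7812628, spread 21 bp). The others were CLV3 (AT2G27250), the peptide that restrains WUS, at 1.679 kb (chr2:11663099-11663498, spread 15 bp), and the growth gene ANT (AT4G37750) at 2.556 kb (chr4:17744763-17745162, spread 22 bp). Among the 5 genes without a common site were RBE (AT5G06070), CUC1 (AT3G15170), AHP6 (AT1G80100) and ARR7 (AT1G19050). ARR7, a cytokinin response regulator, had 2 LFY + UFO peaks, both shared with LFY K249R and not with LFY K249R + UFO. Over all 59 sites at listed genes the spread ran from 3 to 80 bp with a median of 13 bp, and it was at most 20 bp at 47 of them.

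Gene families, with members picked by gene name, did not stand as far from the background as the floral lists. Over 19 families the share of genes with a common site ran up to 55.6%, against the 41.4% of all genes, and 13 families lay above that value. MYB factors reached 44.0% (55 of 125), WRKY factors 47.2% (34 of 72) and NAC factors 48.0% (48 of 100). Homeobox HB factors were higher, at 53.2% (25 of 47), as were SAUR proteins, small auxin-induced growth proteins, at 52.5% (42 of 80). At the low end were the ARR response regulators of cytokinin signalling, with 6 of 24, the SPL factors, with 5 of 18, and the Aux/IAA repressors, with 11 of 32. Ribosomal protein genes named RPL or RPS had 20 of 56. Small families move by several percentage points with 1 gene, and none of these shares was tested.

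**Figure D2:**
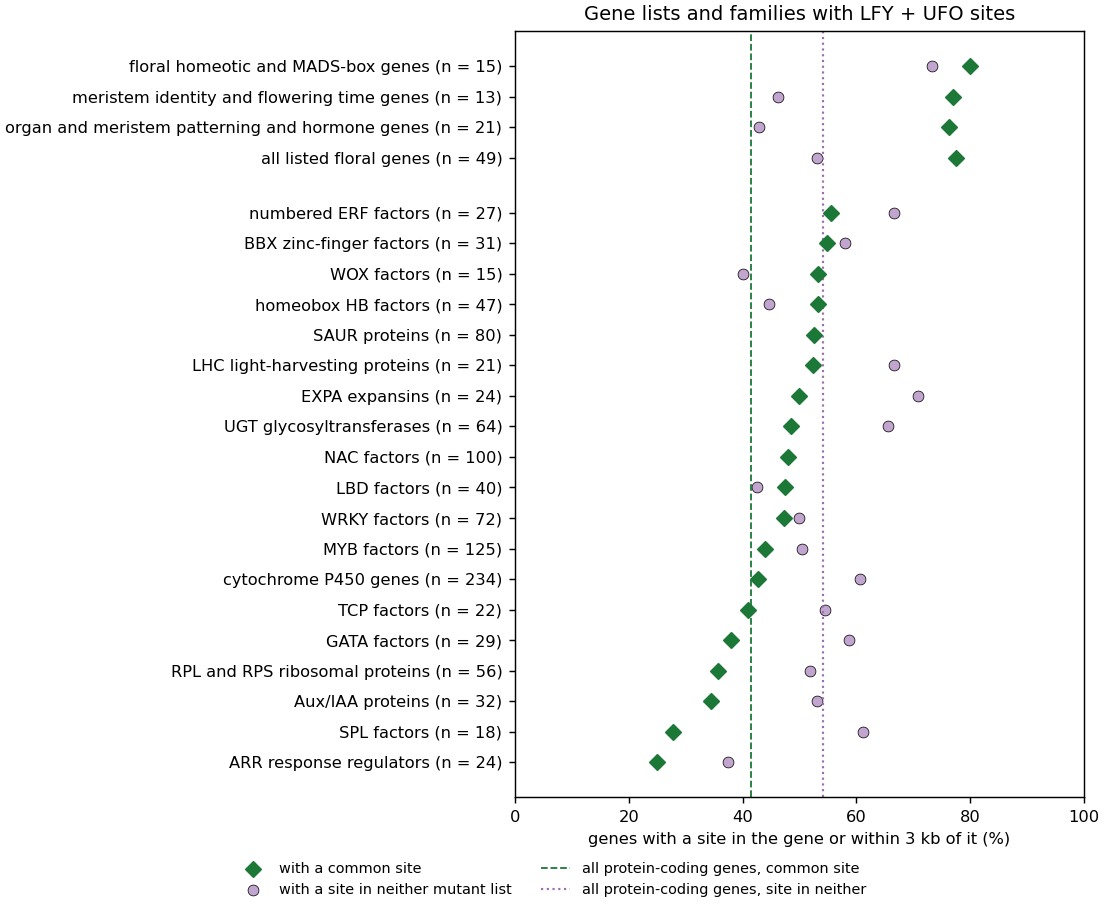
Share of genes, in percent, with a common site (green diamonds) or with a LFY + UFO site in neither mutant list (violet circles) in the gene or within 3 kb of it, for the floral lists and 19 families with the number of genes in brackets. Lines mark the shares over all protein-coding genes, 41.4% and 54.2%; all 49 floral genes together lie at 77.6% for common sites, and the highest family, the numbered ERF factors, at 55.6%.

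Common sites lay inside genes less often than the LFY + UFO peaks that were in neither mutant list. A protein-coding gene contained 3997 of the 7040 common sites, or 56.8% (55.6% to 57.9%). Of the 10088 peaks in neither mutant list it contained 7094, or 70.3% (69.4% to 71.2%). The difference was -13.5 percentage points, with a Newcombe interval of -15.0 to -12.1. It had the same direction on 5 of 5 chromosomes, where it ran from -14.5 to -12.7 percentage points. Peaks shared with a single mutant list fell between, at 63.7% for LFY K249R and 64.4% for LFY K249R + UFO. The difference of common sites was -6.95 percentage points (-9.77 to -4.05) from the former and -7.60 (-11.7 to -3.31) from the latter. Of all bases of the 5 chromosomes, 54.1% lie in a protein-coding gene by the same table. When the gene table was shifted along the chromosomes by 5 to 50 kb, 58.1% to 59.2% of the common sites fell inside genes, slightly more than the 56.8% at the true positions. Of the peaks in neither mutant list, 59.2% to 60.7% did so, fewer than the 70.3% at the true positions.

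The space just outside genes held a larger share of the common sites than of the peaks in neither mutant list, as did places farther out. The shares of a class over all places add up to the whole. The higher shares outside genes are thus not separate from the lower share inside them. Outside genes but within 500 bp of a gene end were 1182 common sites, or 16.8% (15.9% to 17.7%), against 10.3% (9.67% to 10.9%) of the peaks in neither mutant list and 13.2% of all bases. From 500 bp to 1 kb the shares were 7.94% and 5.47%. Together, the first 1 kb held 24.7% of the common sites and 15.7% of the peaks in neither list, a difference of 8.999 percentage points (7.77 to 10.2). It ran from 8.18 to 9.84 on the 5 chromosomes. From peaks shared with LFY K249R alone, common sites differed by 1.98 percentage points within 500 bp (-0.231 to 4.02) and by 4.27 within 1 kb (1.77 to 6.61). From peaks shared with LFY K249R + UFO alone, they differed by 3.25 (-0.016 to 6.03) and 4.51 (0.777 to 7.84). The intervals thus included 0 within 500 bp but not within 1 kb. From 1 to 3 kb were 10.7% of the common sites and 7.68% of the peaks in neither list, against 11.1% of all bases. Beyond 3 kb from any gene were 7.80% of the common sites and 6.26% of the peaks in neither list, both below the 14.3% of all bases. The base composition of these places was not measured here, and its part in the difference was not tested.

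**Figure D3:**
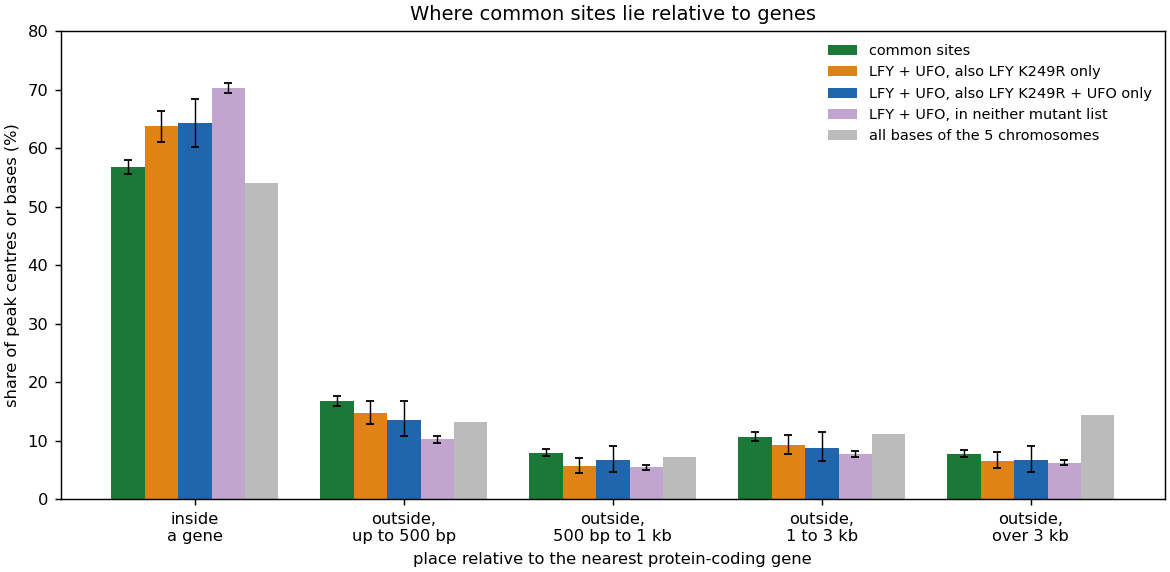
Share of peak centres, in percent, by place relative to the nearest protein-coding gene, for the 4 classes of LFY + UFO peaks and for all bases of the 5 chromosomes; error bars are 95% binomial intervals over peaks. Common sites are the lowest of the 4 classes inside genes (56.8%). Within 500 bp outside genes their share is 16.8%, against 14.8% and 13.5% for peaks shared with LFY K249R alone or LFY K249R + UFO alone. The intervals of these last 2 differences include 0.

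Inside genes, the medians of the 2 classes were close. The median distance of a common site to the nearer end of its gene was 716 bp, against 761 bp for the peaks in neither list. The genes that held them had a median length of 2948 and 2966 bp, both above the 2078 bp of all protein-coding genes. Between genes, common sites sat in gaps of a median 3824 bp, at a median of 788 bp from the nearest gene, and peaks in neither list sat in gaps of 4217 bp at 918 bp from it. In all, 3712 genes contained at least 1 common site.

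At a common site the 3 peak centres nearly coincided. The spread had a median of 13 bp, with 5% of sites at 3 bp or less and 95% at 58 bp or less. It was at most 10 bp at 2742 sites, or 38.9%, and at most 20 bp at 4999 sites, or 71.0%. All 3 centres were identical at 23 sites. The rule limits the distance to either mutant centre to 200 bp, and 98.2% of the sites had a spread of at most 100 bp. The member nearest to the limit, chr1:27386353-27386752, had mutant offsets of 189 and 200 bp. Just outside it, chr5:17407-17806 had offsets of 187 and 201 bp and was not a member. In the LFY + UFO list, 37 peaks had their farther mutant centre over 150 and up to 200 bp away, and 54 over 200 and up to 250 bp away.

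The LFY + UFO centre was the farthest from the other two at 3540 sites, or 50.3% (49.1% to 51.5%). The LFY K249R centre was farthest at 21.7% and the LFY K249R + UFO centre at 22.7%, and there was no single farthest centre at 5.37%. The rule of selection used the distances to the LFY + UFO centre and not the distance between the mutant centres, so these shares are a description without a test. The LFY + UFO list was merged from more replicates than the mutant lists, and the part of this in the positions was not tested.

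A small set of sites was displaced, with both mutant centres over 50 bp from the LFY + UFO centre. It made up 3.54% (3.12% to 3.995%) of the common sites. In the median the mutant centres were 12 bp from each other and the nearer one 73 bp from the LFY + UFO centre. These distances describe sites chosen for them and were not tested. Displaced sites were inside a gene in 59.4% of cases, compared with 53.2% of the sites with a spread of at most 10 bp. That difference of 6.19 percentage points had an interval of -0.279 to 12.4. Another LFY + UFO peak within 1 kb was present for 27.7% and 24.5%, with an interval of the difference from -2.28 to 9.24. Neither interval excluded 0.

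**Figure D4:**
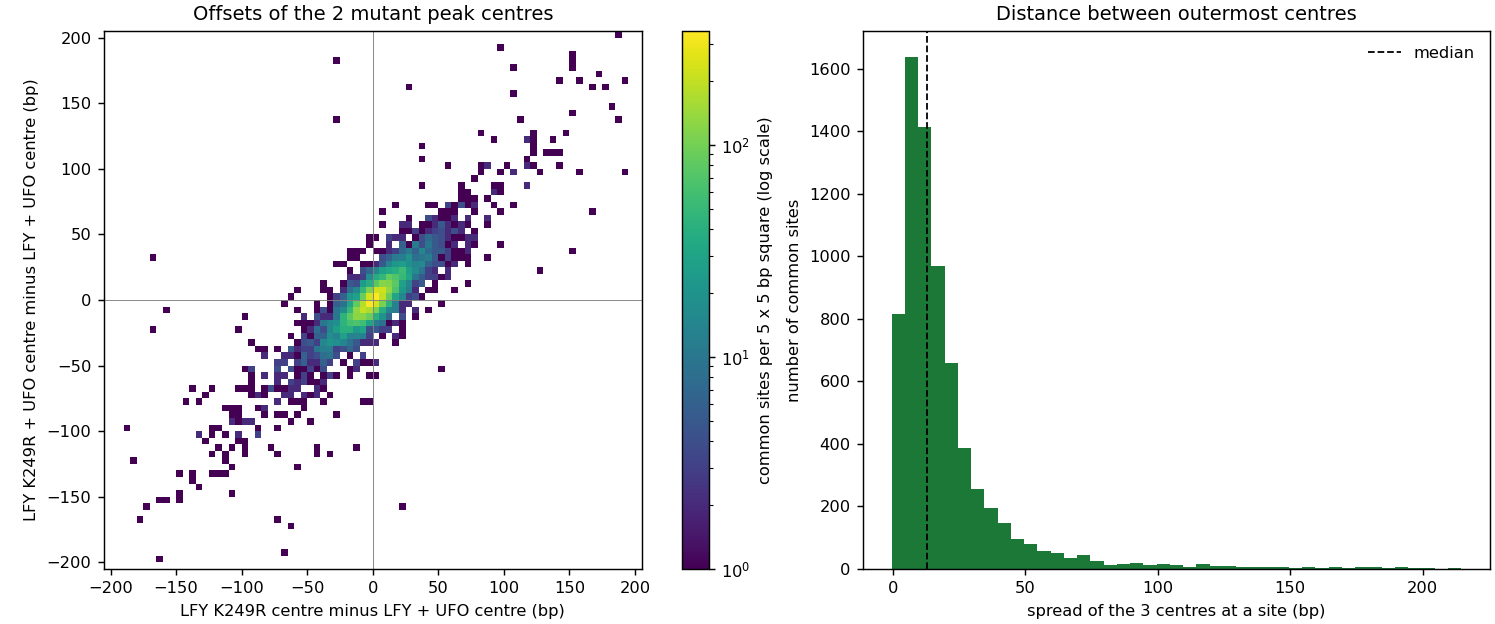
Left, offset in bp of the LFY K249R centre (horizontal) and of the LFY K249R + UFO centre (vertical) from the LFY + UFO centre at each of the 7040 common sites, with the number of sites per square on a log colour scale; right, number of sites by spread in bp, with the median of 13 bp as a dashed line. Points lie along the rising diagonal; the 2 offsets at a site are measured from the same LFY + UFO centre, so they are not independent.

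Common sites made up a like share of the LFY + UFO list on every chromosome. This share was 36.1% to 38.3% on the 5 chromosomes, and the median distance from one common site to the next was 11209 bp. Among 117 windows of 1 Mb, each holding 50 or more peaks of the LFY + UFO list, common sites were fewest on chromosome 5 between 16 and 17 Mb, where they were 46 of 161 peaks (28.6%). They were most frequent on chromosome 2 between 4 and 5 Mb, with 40 of 74 peaks (54.1%). Over the 117 windows the median share was 37.0%, with a 10th percentile of 32.2% and a 90th of 42.7%. The windows named are the extremes of these and were not tested. A further LFY + UFO peak within 1 kb was present for 26.4% (25.4% to 27.4%) of the common sites and for 28.4% (27.5% to 29.3%) of the peaks in neither mutant list. The difference was -1.97 percentage points (-3.32 to -0.610), and with a limit of 2 kb its interval included 0. Neighbour distances and the 200 bp rule use the same peak centres. A peak close beside a common site can thereby be placed in neither mutant list, as at PID. The difference is therefore a description without a test. Where a common site had a LFY + UFO neighbour within 1 kb, that neighbour was itself a common site in 36.6% (34.4% to 38.8%) of cases. The interval includes the 37.1% of the whole list. Adjacent common sites can each be counted as the neighbour of the other, and the interval does not cover this dependence.

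Matching was nearly one to one. The 7040 common sites paired with 7036 distinct peaks of the LFY K249R list and with 7036 of the LFY K249R + UFO list, and 7032 were mutual nearest neighbours in both. In each mutant list, 4 peaks served as the partner of more than 1 common site. The intervals of 62 pairs of successive common sites overlapped.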

How the data were processed

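The authors deposited 3 peak lists, with a start and an end per peak (a position in bp, here given the unit other, and no score). Per the submitters' processing notes, Bowtie2, SAMtools and MACS2 and the TAIR10 build were used. Versions, thresholds and the use of the input are not given in the sources used here. Replicates were merged by the authors, per the labels.

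Peaks were matched by the distance of their centres. Shares carry exact (Clopper-Pearson) 95% intervals, and differences carry Newcombe intervals from Wilson limits. Depth is unknown. Gene positions came from RefSeq's table for TAIR10.1, which has no strand. As a check that these positions fit the TAIR10 peaks, the table was shifted. The share of peaks in neither mutant list inside genes was 70.3% unshifted and 59.2% to 60.7% at 8 shifts of 5 to 50 kb, and that of common sites was 56.8% unshifted and 58.1% to 59.2% shifted. With shifts of 200 bp down or up, the share was still 70.3% for peaks in neither list and was 58.6% and 58.3% for common sites. The share of peaks in neither list thus does not resolve an offset that small. No genome sequence was used, so the planned results on the LFY core motif, the weight matrix, base composition and upstream position were not made, and no sequences are printed.

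The members, gene lists and families were chosen with earlier results of these data known. Genes were named by a rule: every listed gene with a common site, and the 5 genes with the most common sites, with 3 kb on either side in place of the strand-dependent window planned. A few of these genes and 1 family are not reported here by name. Matching and gene placement were tested on simulated data. Alternatives were other match distances, gene windows, gene sets and neighbour distances. Intervals were computed with scipy 1.17.1 and tables with pandas 2.3.3 and numpy 2.4.6 under Python 3.11.15, and plots were drawn with matplotlib 3.10.9.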

Additional observations from a re-analysis of the deposited data

How the results depend on the processing

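The number of common sites was 6588 with centres within 50 bp, 6917 within 100 bp, 7402 with any overlap and 7032 for mutual nearest peaks, and the median spread stayed at 13 bp in the 2 alternatives run. Alternatives to the gene locations, to gene windows and to differences in neighbours were chosen after seeing the data. Counting all annotated genes raised the share of common sites inside a gene to 61.8%, and the difference from peaks in neither mutant list was then -15.4 percentage points. It ran from -13.6 to -13.5 under the other class limits. Other limits change some values by construction. The share of common sites outside genes near a gene end was 16.8% for 500 bp and 35.4% for 3 kb, and the difference from peaks in neither list kept its direction, at 6.53 and 12.0 percentage points. The gene body alone gave 19 listed floral genes with a common site, and 1 kb on either side gave 24.7% of all protein-coding genes. A further LFY + UFO peak was found for 10.2% of common sites within 500 bp and 48.6% within 2 kb, and at 2 kb the difference from peaks in neither list was -1.33 percentage points with an interval that included 0. No paired analysis was possible because each preparation has a single list merged before deposit, and replicates could not be left out for the same reason. The alternatives on motif, matrix, base composition and upstream window were not run for lack of sequence and strand.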

Other observations

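Of all protein-coding genes, 51 had at least 4 common sites inside them or within 3 kb, RAX1 of the floral lists among them. Whether this number exceeds an even scatter of sites was not tested. Among the 5 with the most were AT5G34780 with 6, UBP19 and MSP2 with 5 each, and AT1G05280 with 4, the last chosen by gene ID among ties. UBP19, a ubiquitin-specific protease, had 1 inside (chr2:10475536-10475935, spread 14 bp) and 4 around it. None of the 5 sites at MSP2 was accompanied by a LFY + UFO peak in neither mutant list.

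The densest 10-kb stretch held 7 common sites among 8 LFY + UFO peaks. It ran from chr5:12956795-12957194 to chr5:12965009-12965408, around AT5G34780, and the steps between neighbouring centres ranged from 359 to 3084 bp. The spreads of the 7 sites ran from 4 to 40 bp. Whether the stretch is repeated sequence was not tested.

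Shares of genes that make no protein were below that of protein-coding genes for both kinds of site. Within 1 kb of either end, a common site was found for 13.9% of 3480 lncRNA genes, 13.6% of 625 tRNA genes, 13.2% of 326 miRNA genes and 11.9% of 3917 pseudogenes, against 24.7% of protein-coding genes. A LFY + UFO peak in neither mutant list was found for 18.3% of the lncRNA genes, 100 of the tRNA genes, 16.6% of the miRNA genes and 16.1% of the pseudogenes, against 34.1% of protein-coding genes. These shares are given without a test. Median lengths were 343, 73 and 144.5 bp for the first 3 kinds, 2043 bp for pseudogenes and 2078 bp for protein-coding genes. The part of gene length in these shares was not tested.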
